A study of Mus musculus with 27 samples.

Results

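The genes described here were 36 liver genes of fatty acid oxidation, ketone body metabolism and the PPARalpha response, chosen by symbol from a written list, out of 17655 genes listed over the 4 deposited tables. All 36 were listed in every table and all 36 passed the filter on low counts in every comparison. RNA was measured in whole liver of Kdm5b fl/fl mice, 27 in all and 3 in each of 9 groups. All mice had received an adeno-associated virus (AAV) and had been fed a western diet while drinking alcohol in water (WDA). WT mice carried the floxed alleles and an AAV control. KO mice received AAV-CMV-Cre, whose promoter is not restricted to a cell type, and HepKO mice received AAV8-TBG-Cre, whose promoter is active in hepatocytes. The WDA groups (WT and KO of both sexes, and HepKO females) were labelled with 8 weeks of WDA. The resolution groups (Res, WT and KO of both sexes) were labelled with 16 weeks of WDA and then a resolution period of 4 weeks. In the study, resolution meant a change to chow and plain water, without western diet or alcohol. The age of the sequenced mice is not given in the labels. The labels name the virus before the feeding in the WDA groups and after it in the Res groups. All WDA libraries came from 1 numbered experiment and all Res libraries from another. Stage, change of diet, end of alcohol, length of feeding, order of virus and feeding, and experiment therefore cannot be told apart.

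Fatty acids enter hepatocytes, are activated to acyl-CoA, and are carried into mitochondria by the carnitine shuttle, where beta-oxidation shortens them. Acetyl-CoA from this pathway feeds ketone body synthesis during fasting. Peroxisomes shorten very long chains, and CYP4A enzymes of the endoplasmic reticulum oxidise the far end of the chain. PPARalpha is a nuclear receptor that binds fatty acids and, as a heterodimer with RXR, drives many of these genes in the fasted liver, with PGC-1alpha (Ppargc1a) as a coactivator.

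Of the 36 members, 8 (Acaa2 among them) had no window in the search. Promoter windows of the other 28 came from the RefSeq table (GRCm38.p6). There were 30 windows of 300 bases each, from 250 bases before to 50 after the start site. They were searched on both strands for the PPAR-type direct repeat, the motif AGGTCA written 2 times with 1 base of any kind between the copies, allowing up to 2 mismatches. A match was found in 16.7% of the members' windows and in 3.86% of all 32851 windows. The members' windows and all windows were not chosen alike, so the 2 shares are not compared. A match is a description of letters only. The 250 bases before the start of 4 members are given 5′ to 3′ along the gene, with any match in capitals: Pdk4 and Acaa1b because they were called between the stages, Cd36 because it was called between the sexes, and Fabp1 because its match was the closest, with 1 mismatch. The Pdk4 stretch lies at chr6:5496279-5496528 (minus strand), that of Acaa1b at chr9:119157094-119157343 (minus), that of Cd36 at chr5:17835897-17836146 (minus) and that of Fabp1 at chr6:71199629-71199878 (plus). The Cd36 stretch precedes a start inside the annotated gene, which spans chr5:17781690-17888959, and is not upstream of the whole gene.
Pdk4: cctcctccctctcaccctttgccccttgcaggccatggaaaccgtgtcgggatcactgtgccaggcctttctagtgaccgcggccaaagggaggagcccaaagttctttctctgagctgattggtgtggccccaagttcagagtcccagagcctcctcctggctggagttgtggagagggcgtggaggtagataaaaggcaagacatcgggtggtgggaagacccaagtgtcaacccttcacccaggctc
Acaa1b: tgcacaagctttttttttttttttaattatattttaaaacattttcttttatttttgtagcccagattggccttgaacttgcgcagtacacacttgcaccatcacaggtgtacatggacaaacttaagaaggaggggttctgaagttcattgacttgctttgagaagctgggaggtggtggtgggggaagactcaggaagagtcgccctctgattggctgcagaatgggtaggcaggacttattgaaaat
Cd36: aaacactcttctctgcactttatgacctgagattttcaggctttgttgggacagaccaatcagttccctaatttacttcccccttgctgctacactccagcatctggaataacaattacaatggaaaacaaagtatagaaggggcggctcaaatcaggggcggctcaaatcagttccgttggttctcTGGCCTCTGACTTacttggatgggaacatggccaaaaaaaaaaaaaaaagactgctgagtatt
Fabp1: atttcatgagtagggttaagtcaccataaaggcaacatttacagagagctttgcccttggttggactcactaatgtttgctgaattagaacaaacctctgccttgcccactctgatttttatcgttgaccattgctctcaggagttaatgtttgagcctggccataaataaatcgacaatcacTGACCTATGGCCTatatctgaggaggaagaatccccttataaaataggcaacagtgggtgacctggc
The windows of Pdk4 and Acaa1b held no match. Those of Cd36 and Fabp1 held 1 each, beginning 63 and 67 bases before the start, on the strand opposite to the gene.

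Total counts per library ranged from 14634602 to 19388251. Values per mouse are given as library-scaled CPM, a gene's share of the library's counts after TMM scaling. Log2 fold changes come from quasi-likelihood fits in edgeR, with p-values adjusted over all genes tested (Benjamini-Hochberg). The value after ± is an approximate standard error, derived as the absolute log2 fold change divided by the square root of the F statistic. A member is called when its adjusted p is under 0.05. Hepatocyte markers summed to between 83015 and 190592 CPM, with a median of 115783 CPM in the WDA and 134810 CPM in the Res libraries. In KO females they were 107741 to 128132 CPM on WDA and 164413 to 190592 CPM at resolution, without overlap. In KO males and in WT mice of each sex the stages overlapped. The part of these markers in the stage differences was not tested. In 5 libraries the summed cholangiocyte markers were 190 to 580 CPM, against 31.7 to 125 CPM in the other 22. These were WDA WT female mouse 7, WDA KO male mouse 17, Res WT female mouse 13, Res WT male mouse 9 and Res KO male mouse 5. Stellate cell and matrix markers summed to 423 to 878 CPM in them and to 191 to 416 CPM in the others. In these 5 libraries 26 to 32 of the 36 members were lower than in both mice of the same group. The same count was not made over all genes, so it cannot be read as particular to the members. It also rests on the scaled CPM and was not repeated on FPKM, the authors' scaling by gene length and depth. In WDA WT female mouse 7, Cpt1a was lowest in CPM (952 against 967 and 1126) and highest in FPKM (321 against 234 and 274). Ppara was lowest there in both (26.1 FPKM against 52.2 and 61.0). Hepatocyte markers summed to 83015 to 113849 CPM in these 5 libraries and to 100713 to 190592 CPM in the other 22. In whole liver, fewer cells of a type and less RNA per cell cannot be told apart. The main counts of calls are given with and without these 5 libraries. Ddx3y, on the Y chromosome, was at most 0.520 CPM in females and at least 38.4 CPM in males.

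Kdm5b itself, the targeted gene (a histone demethylase), was 21.5, 25.1 and 31.0 CPM in WDA WT females, 24.3, 15.9 and 14.4 CPM in WDA KO females and 14.2, 8.27 and 17.6 CPM in WDA HepKO females. In WDA males it was 24.6, 23.7 and 24.3 CPM in WT and 21.7, 21.8 and 20.3 CPM in KO. In Res females it was 16.6, 17.8 and 17.5 CPM in WT and 12.1, 13 and 10.6 CPM in KO, and in Res males 18.8, 19.3 and 19.6 CPM in WT and 12.9, 17.4 and 7.89 CPM in KO. In CPM, KO and WT overlapped in WDA females only, where KO mouse 1 was within the WT range. In FPKM they also overlapped in males of both stages. WDA males had 3.71, 3.49 and 3.44 FPKM in WT and 3.26, 4.74 and 3.03 FPKM in KO. Res males had 2.77, 3.09 and 3.54 FPKM in WT and 2.12, 3.22 and 1.12 FPKM in KO. Res females did not overlap in either measure. None of these differences passed the adjusted threshold, and counts over the whole gene do not measure the floxed exons separately.

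Levels were compared between genes per length, as FPKM. Fabp1, the fatty acid binding protein of the hepatocyte cytosol, had the highest median over the 27 libraries (5545 FPKM), followed by Cyp4a14 (2796 FPKM) and Cyp4a10 (2690 FPKM), the omega-hydroxylases, whose ranges overlapped. Acaa1b and Ehhadh, enzymes of peroxisomal beta-oxidation, followed at medians of 1164 and 926 FPKM. The 8 mitochondrial beta-oxidation enzymes lay between 90.4 FPKM (Acads, short-chain acyl-CoA dehydrogenase) and 497 FPKM (Acaa2, the thiolase). The lowest medians were those of Ppargc1a (2.92 FPKM), Slc16a6, a monocarboxylate transporter that exports ketone bodies (4.22 FPKM), and Pdk4, the kinase that shuts pyruvate dehydrogenase in fasting (12.2 FPKM).

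**Figure D1:**
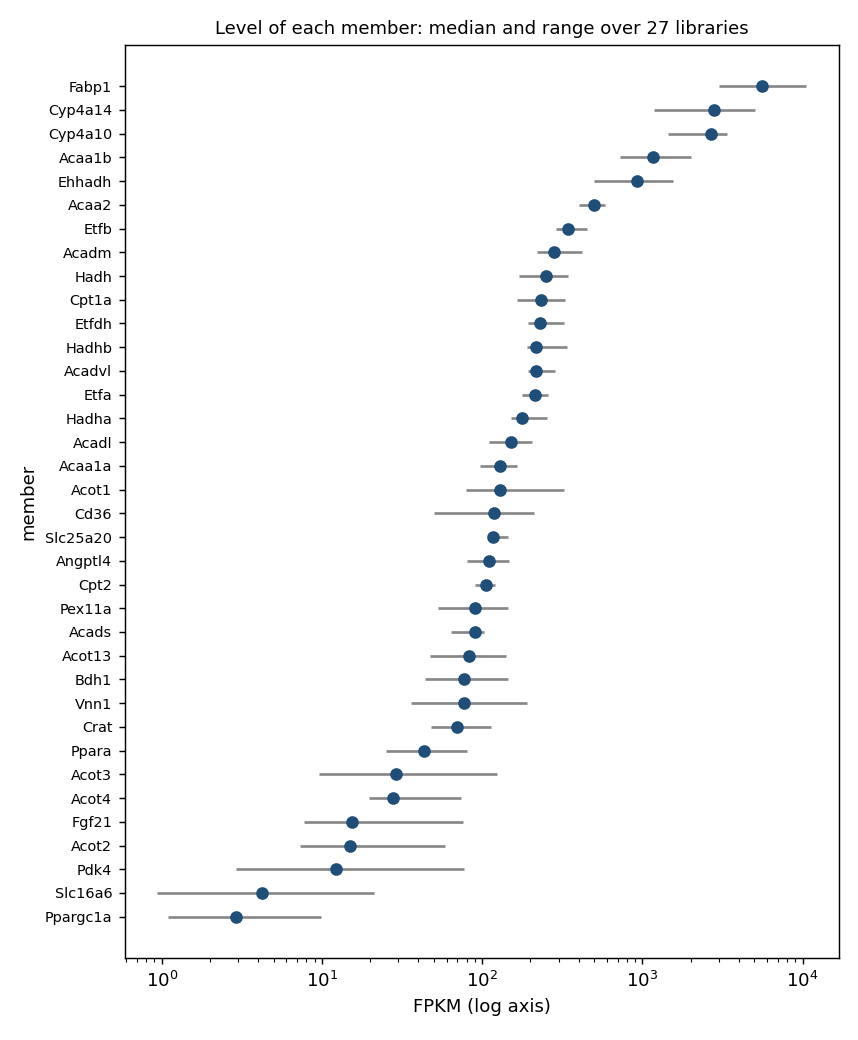
Median (point) and range (line) of each member in FPKM over 27 libraries, on a log axis. Levels ran from 2.92 FPKM for Ppargc1a to 5545 FPKM for Fabp1.

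The first question was how the members differed between WDA and 4 weeks of resolution. In WT mice of both sexes, 2 of 36 members were higher and 3 lower at resolution. The background was 10.8% of 12810 genes called (5% higher and 5.83% lower). In KO mice 2 members were again higher and 3 lower, against 9.46% of 12806 genes (4.37% higher and 5.10% lower). Pdk4, Cyp4a14, Acot13 and Acaa1b were called in both. The median log2 fold change of the members was 0.015 in WT and 0.052 in KO, beside 0.0175 and -0.0067 over all genes tested. Without library scaling the KO split was 1 higher and 6 lower. There 8.11% of genes were called, 198 higher and 841 lower. Without the 5 libraries high in cholangiocyte markers the KO split was 2 higher and 4 lower (15.4% of genes called).

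Pdk4 had the largest log2 fold change among the members. In WT females it was 27.4, 19.5 and 29.2 CPM on WDA and 88.5, 140 and 62.2 CPM at resolution, and in WT males 10.8, 11.5 and 17.9 CPM against 25.3, 13.7 and 23.2 CPM. In KO females it was 148, 47.4 and 38.5 CPM against 176, 151 and 255 CPM, and in KO males 14.6, 28.5 and 10.4 CPM against 39.2, 64.2 and 29.5 CPM. The stages overlapped only in WT males. The log2 fold change was 1.30 ± 0.29 in WT (edgeR adjusted p = 0.0176) and 1.31 ± 0.35 in KO (edgeR adjusted p = 0.0345). In WT the call was lost without WDA WT female mouse 5 (adjusted p = 0.0518), and in KO on leaving out 9 of the 12 libraries one at a time (adjusted p up to 0.0884), all but WDA KO female mouse 1 and KO male mice 17 (WDA) and 6 (Res). Without library scaling the KO call was also lost (adjusted p = 0.0751).

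Cyp4a14 was 5883, 6339 and 2410 CPM in WDA WT females and 9421, 10670 and 6346 CPM in Res WT females. In WT males it was 3111, 3082 and 4161 CPM against 8631, 6537 and 4720 CPM. KO mice had 7790, 6894 and 5194 CPM against 10203, 8865 and 10741 CPM in females, and 2909, 2525 and 3620 CPM against 11343, 5161 and 7742 CPM in males. Within each sex and vector every Res mouse was above every WDA mouse. The log2 fold change was 0.90 ± 0.25 in WT (edgeR adjusted p = 0.0365) and 1.01 ± 0.23 in KO (edgeR adjusted p = 0.0182). The WT call was lost on leaving out 8 of the 12 libraries one at a time (adjusted p up to 0.0867), all but WDA WT female mice 6 and 7, Res WT female mouse 13 and Res WT male mouse 9, and the KO call on none. The WT call was also lost with no filter on low counts (adjusted p = 0.0531). Cyp4a10, its neighbour on chromosome 4, had log2 fold changes of 0.10 in WT and 0.38 in KO and was not called. The 2 genes are close paralogs, and reads shared between them could be split by the counting.

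Acot13, a thioesterase that cleaves long-chain acyl-CoA, was the member with the smallest adjusted p. It was 34.3 to 58.6 CPM over the 15 WDA libraries and 23.1 to 29.6 CPM over the 12 Res libraries, with no overlap. The log2 fold change was -0.83 ± 0.08 in WT (edgeR adjusted p = 0.000799) and -0.86 ± 0.12 in KO (edgeR adjusted p = 0.00322), and no single library removed the call.

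The peroxisomal thiolases were lower. Acaa1b was 2862, 2583 and 1299 CPM in WDA WT females and 1117, 1427 and 878 CPM in Res WT females, and 1922, 1622 and 2082 CPM against 1369, 1234 and 940 CPM in males. WDA WT female mouse 7, at 1299 CPM, overlapped the Res females. Its log2 fold change was -0.82 ± 0.20 in WT (edgeR adjusted p = 0.0251) and -0.66 ± 0.19 in KO (edgeR adjusted p = 0.0462). Leaving out 1 library ended the call in 7 of 12 cases in WT (all but WDA WT female mouse 7, WDA WT male mouse 20, Res WT female mouse 12 and Res WT male mice 7 and 8) and 10 of 12 in KO (all but WDA male mouse 17 and Res male mouse 6), with adjusted p up to 0.114. The KO call was also lost with no filter on low counts (adjusted p = 0.0628). Acaa1a was called in WT (-0.52 ± 0.14, edgeR adjusted p = 0.0346, lost in 9 of 12 cases, all but WDA WT female mouse 7 and Res WT female mice 1 and 12) and not in KO (-0.25, adjusted p = 0.34). These 2 thiolases are also paralogs.

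Bdh1, the mitochondrial enzyme that interconverts acetoacetate and beta-hydroxybutyrate, was called in KO mice, at -0.90 ± 0.15 (edgeR adjusted p = 0.00649), with no single library ending the call. In KO females it was 425, 304 and 290 CPM on WDA and 164, 170 and 152 CPM at resolution, and in KO males 303, 308 and 316 CPM against 160, 140 and 257 CPM. In WT its log2 fold change was -0.60 ± 0.21 and did not pass (edgeR adjusted p = 0.087). Res WT female mouse 12, at 347 CPM, was above every WDA WT female.

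**Figure D2:**
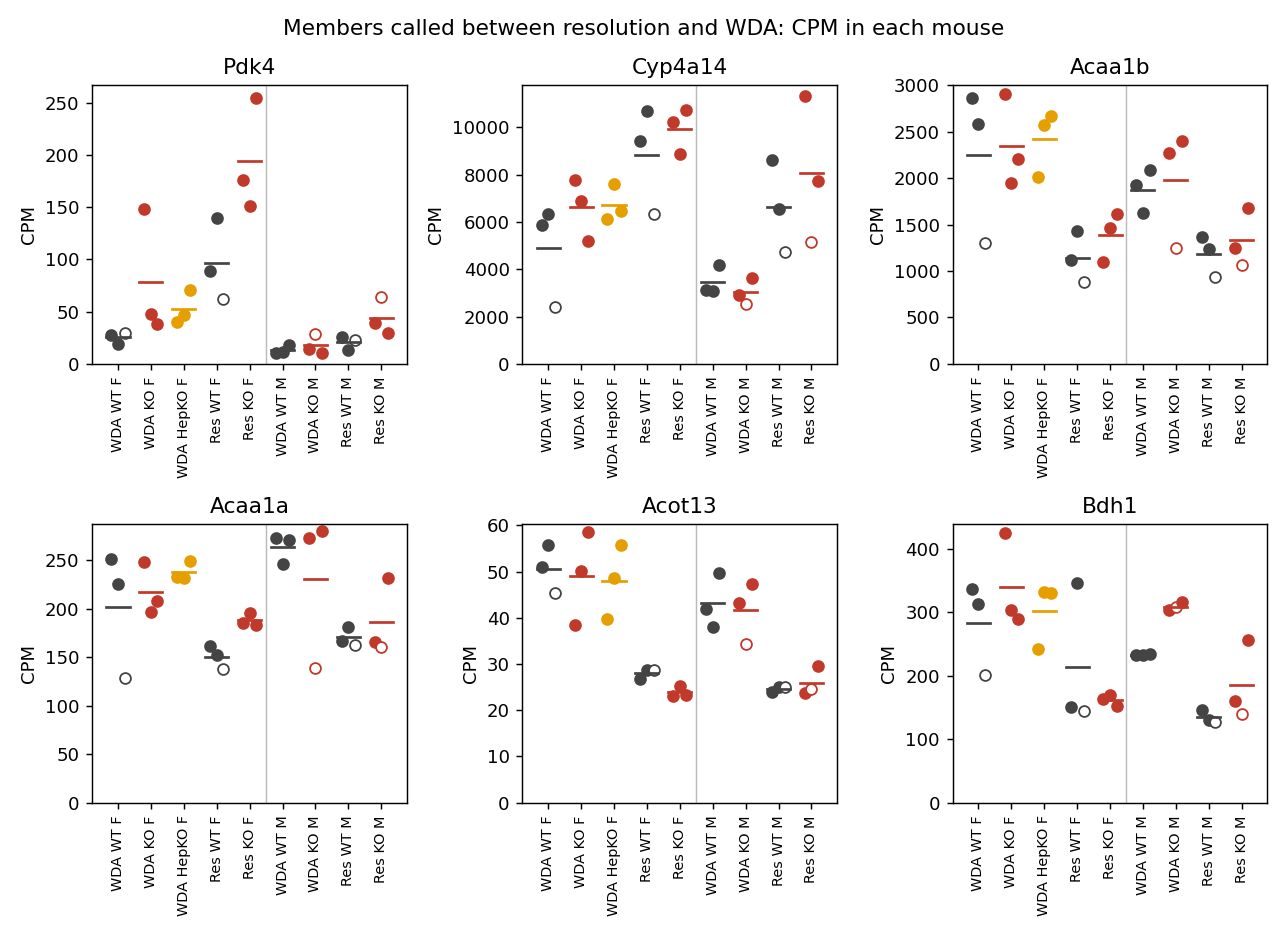
CPM in each mouse (points) and group mean (lines) for the 6 members called between resolution and WDA, WT grey, KO red, HepKO orange, females left of the grey line. Open points are the 5 libraries high in cholangiocyte markers. Every Res point for Acot13 lies at or under 29.6 CPM and every WDA point at or above 34.3 CPM.

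The enzymes at the centre of the pathway had small log2 fold changes. None of the 8 mitochondrial beta-oxidation enzymes was called in either comparison of both sexes, with log2 fold changes from -0.32 to 0.06 in WT and -0.28 to 0.21 in KO. The 4 carnitine shuttle genes ranged from -0.33 to 0.09 in WT and -0.34 to 0.16 in KO. Cpt1a, the rate-limiting carnitine palmitoyltransferase, was at -0.33 and -0.34. The 3 electron transfer genes, which pass electrons from the dehydrogenases to the respiratory chain, ranged from -0.29 to 0.09 and from 0.07 to 0.23. Without the 5 libraries high in cholangiocyte markers, 11 members were called in WT, where 18.5% of genes were called, among them Acads (-0.39), Hadh (-0.34), Etfb (-0.35) and Cpt1a (-0.31) as lower and Acot1 (0.58) and Pex11a (0.37) as higher.

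By sex, no member was called in WT females, where 0% of genes were called, nor in KO males (0%). In WT males 9 members were called against 11.0% of genes, and in KO females 9 against 20.4%. With all 9 groups in 1 fit, 1 and 2 members were called (2.28% and 11.5% of genes), and leaving out 1 library gave 2 to 9 and 2 to 8. The shares of all genes in those left-out fits are not given here, so these ranges cannot be read as particular to the members. Ppara itself was called lower in both, at -0.72 ± 0.17 in WT males (edgeR adjusted p = 0.033) and -0.76 ± 0.20 in KO females (edgeR adjusted p = 0.029). In WT males it was 409, 509 and 534 CPM on WDA and 337, 318 and 219 CPM at resolution, without overlap. In KO females it was 427, 462 and 260 CPM against 190, 223 and 256 CPM, with the stages parted only by 260 and 256 CPM. In WT females it was 376, 436 and 136 CPM against 274, 531 and 228 CPM, and in KO males 376, 200 and 422 CPM against 275, 263 and 431 CPM, with overlap in both. The Ppara call was lost on leaving out 4 of 6 libraries in WT males (adjusted p up to 0.145) and 5 of 6 in KO females (adjusted p up to 0.0932), and in the fit over all 9 groups (adjusted p = 0.275 and 0.189). The sex difference of the resolution effect in WT was called for 0.00760% of 13152 genes and for no member. At an unadjusted p under 0.05 it held 2 members, Slc16a6 and Pdk4, against 7.71% of genes.

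Of 112 other pathway genes tested in WT, 3 were higher and 12 lower, and of 113 in KO also 3 and 12. Without the 5 libraries high in cholangiocyte markers these counts were 8 and 28 in WT and 7 and 21 in KO, and without library scaling they were 4 and 11 in WT and 1 and 20 in KO. The lipogenic genes Scd1 (-3.38 in WT, -3.31 in KO) and Elovl6 (-1.34 and -1.70) were called. Scd1 alone was 6801 to 23753 CPM in the WDA libraries and 757 to 2442 CPM in the Res libraries. The other 11 genes of the lipogenesis list summed to 674 to 1397 CPM and 561 to 1046 CPM, with overlap. Nr1d1, a clock repressor, was at -2.10 ± 0.46 in WT and -1.75 ± 0.34 in KO, both called. Of the lymphocyte and neutrophil markers, 2 of 9 were called higher in WT, against 5% of all genes. The part of time of day, feeding or these markers was not tested.

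**Figure D3:**
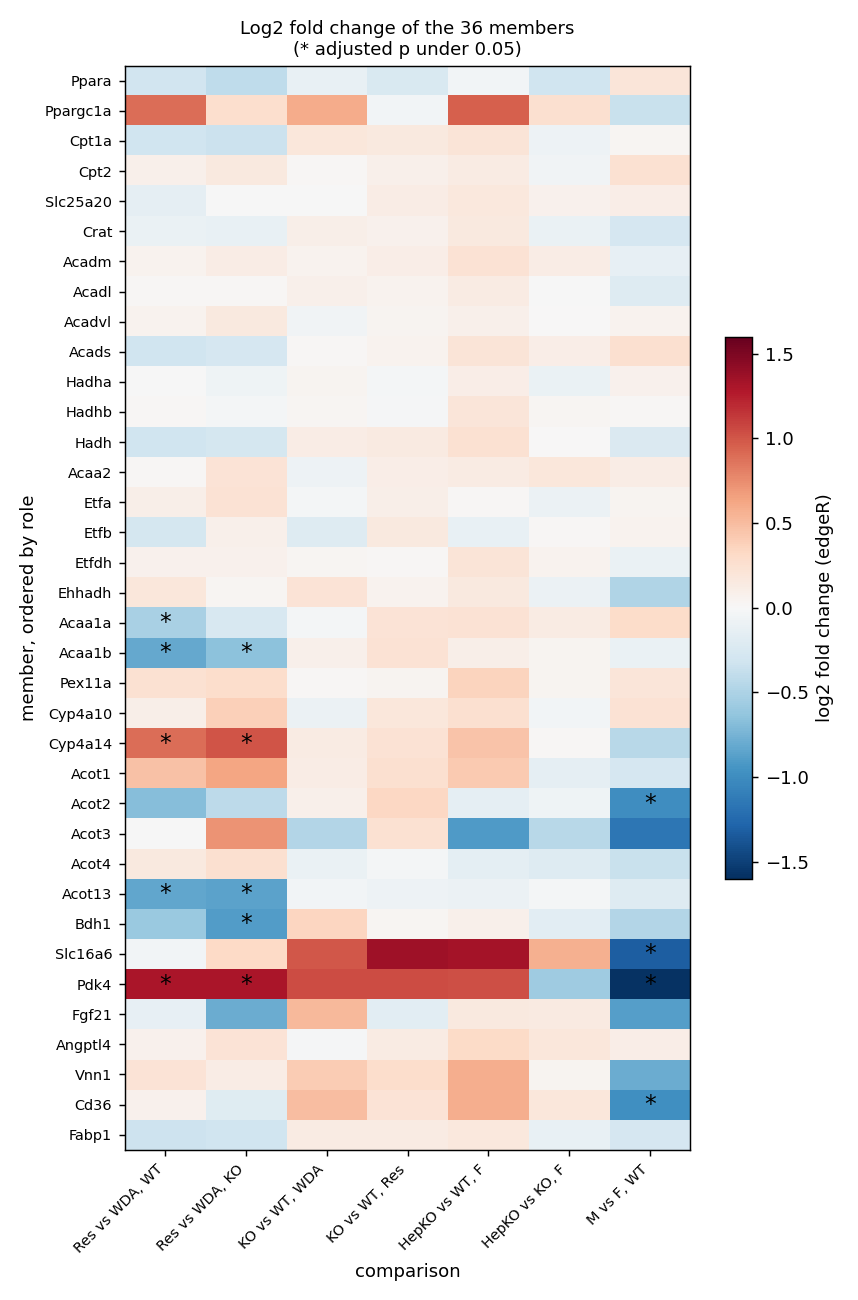
Log2 fold change of the 36 members (rows, ordered by role) in 7 comparisons (columns), from blue (lower) to red (higher), with an asterisk where the adjusted p is under 0.05. The rows of the mitochondrial enzymes are pale throughout, and the columns of KO against WT and of HepKO hold no asterisk.

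The second question was whether loss of Kdm5b changed the members. No member was called for KO against WT on WDA or at resolution, where 0% of 12667 and 0% of 12872 genes were called by edgeR. At an unadjusted p under 0.05, 4 members stood higher on WDA (against 2.89% of genes in either direction) and 3 at resolution (against 8.06%), and none lower. DESeq2 called 1 member in each, Cd36 on WDA (0.49, adjusted p = 4.68e-06) and Pdk4 at resolution (1.05, adjusted p = 0.0333), where it called 0.0316% and 0.0466% of genes. Within each sex and stage 0% of genes and no member were called: WDA females (0%), WDA males (0%), Res females (0%) and Res males (0%).

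Slc16a6 and Pdk4 had the largest differences. Slc16a6 was 18.8, 11.9 and 9.21 CPM in Res WT females and 44.9, 59.4 and 64.3 CPM in Res KO females, without overlap. In Res males it was 8.85, 7.30 and 9.50 CPM in WT and 8.95, 23.0 and 6.09 CPM in KO, with overlap. On WDA it was 18.1, 14.1 and 32.9 CPM in WT females, 46.2, 20.7 and 46.0 CPM in KO females, 6.07, 4.46 and 5.37 CPM in WT males and 11.8, 16.8 and 8.34 CPM in KO males. The log2 fold change was 1.36 ± 0.36 at resolution (edgeR adjusted p = 0.614) and 0.997 ± 0.27 on WDA (edgeR adjusted p = 1). In Res females it was 2.07 ± 0.26 (edgeR adjusted p = 0.079; 19.2% of genes had an unadjusted p under 0.05). There the fit over all 9 groups gave an adjusted p of 0.00822 and DESeq2 3.65e-11, with 4.95% and 4.83% of genes called.

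Pdk4 was at 1.05 ± 0.24 at resolution (edgeR adjusted p = 0.614) and 1.04 ± 0.39 on WDA (edgeR adjusted p = 1). Its KO and WT mice, listed above, overlapped only in WDA males. Per1, a clock gene that also responds to glucocorticoids, was 94.1, 91.2 and 130 CPM in Res KO females and 82.9, 30.0 and 61.0 CPM in Res WT females, and its part in the differences of Pdk4 and Slc16a6 was not tested. Ppargc1a was at 0.59 ± 0.32 on WDA and -0.05 ± 0.42 at resolution, and Acot2, a mitochondrial thioesterase, at 0.33 at resolution. The 8 mitochondrial enzymes ranged from -0.09 to 0.12 on WDA and from -0.03 to 0.15 at resolution.

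Cd36, the fatty acid translocase, is named here after its values were seen. On WDA it was 315, 324 and 295 CPM in WT females and 399, 427 and 412 CPM in KO females, and 146, 168 and 193 CPM against 242, 246 and 263 CPM in males, without overlap in either sex. At resolution KO and WT overlapped in both sexes. The difference on WDA was 0.49 ± 0.09 (edgeR adjusted p = 1, unadjusted p = 0.00016). Adipocyte markers summed to 13 to 52.1 CPM in WDA WT males and 2.18 to 125 CPM in WDA KO males, and their part was not tested.

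No member was called for a difference of the KO effect between stages (0% of 13186 genes called) or between sexes at resolution (0% of 13178). At an unadjusted p under 0.05 the stage difference held 1 member, Etfb (0.37), against 2.36% of genes, and the sex difference held Slc16a6 (-1.51) and Fgf21 (1.69), against 11.5%. For the sex difference the members above and below 0 at that p were 7 and 1 without the 5 libraries high in cholangiocyte markers, and 5 and 0 without library scaling. The share of 11.5% belongs to the main fit. The shares in these 2 alternative fits are not given here, so their counts cannot be read as particular to the members. Without the 5 libraries the median log2 fold change was 0.195 for the members and -0.0011 for all genes. Without library scaling it was 0.204 for the members and 0.2257 for all genes.

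In HepKO females on WDA the comparison with WT asked for an effect of loss in hepatocytes. No member and 0% of 12413 genes were called. At an unadjusted p under 0.05 there were 4 members, all higher, against 10.1% of genes. Slc16a6 was 85.6, 49.2 and 32.0 CPM in HepKO, a log2 fold change of 1.33 ± 0.45 (edgeR adjusted p = 0.417), and HepKO mouse 15 overlapped WT mouse 7. Pdk4 was 40.5, 47.2 and 70.4 CPM, all above WT, at 1.03 ± 0.25 (edgeR adjusted p = 0.278). Ppargc1a was 18.5, 25.9 and 26.1 CPM against 9.12, 18.4 and 8.59 CPM in WT, at 0.95 ± 0.31 (edgeR adjusted p = 0.408). Without WT mouse 7, Pdk4 (1.17, adjusted p = 0.0354) and Slc16a6 (1.79, adjusted p = 0.0351) were called, in a fit that called 2.8% of genes. In that fit 6 members were higher and 3 lower at an unadjusted p under 0.05, beside 2517 of 12471 genes in either direction. There 15 members were above 0 and 21 below. DESeq2 called Pdk4 with all mice (adjusted p = 0.0185) and 1.79% of genes. The HepKO and WT comparison and the KO and WT comparison on WDA share the WT females.

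Between HepKO and KO females no member was called, against 0.0162% of 12351 genes, and none had an unadjusted p under 0.05 (5.74% of genes). Pdk4 was at -0.57 ± 0.45, Slc16a6 at 0.56 ± 0.37 and Acot3, a peroxisomal thioesterase, at -0.44. The Pdk4 value turned to 0.29 without KO mouse 1, whose Pdk4 was 148 CPM.

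The third question was how the members differed between the sexes in WT mice. No member was higher in males and 4 were lower, against 2.64% of 12810 genes called (1.56% higher and 1.08% lower). Without library scaling 10 members were lower (6.49% of genes called), and without the 5 libraries high in cholangiocyte markers 8 were (5.5%). Pdk4 was at -1.58 ± 0.29 (edgeR adjusted p = 0.0119) and Cd36 at -0.99 ± 0.12 (edgeR adjusted p = 0.000448), and neither call was lost on leaving out any 1 library. Cd36 was 137 to 193 CPM in the WT males and 295 to 419 CPM in the WT females, without overlap. Slc16a6 was at -1.32 ± 0.31 (edgeR adjusted p = 0.0416) and Acot2 at -0.99 ± 0.23 (edgeR adjusted p = 0.0432), and leaving out 1 library ended each call in 8 of 12 cases (adjusted p up to 0.128 and 0.124). The Slc16a6 call stood without WDA female mouse 7, Res female mice 12 and 13 or Res male mouse 9, and the Acot2 call without WDA female mice 5, 6 and 7 or Res female mouse 13. Acot2 was 37.6, 36.7 and 84.3 CPM in WDA WT females and 27.6, 22.9 and 27.6 CPM in WDA WT males, and 27, 47.1 and 22.9 CPM against 20.1, 15.7 and 14.1 CPM at resolution. Acot1 to Acot4 lie together on chromosome 12 and are near-identical in part, so the split of reads between them is uncertain. Of the 112 other pathway genes tested, 8 were higher and 3 lower in males, against 8 and 10 without library scaling and 15 and 8 without the 5 libraries high in cholangiocyte markers. Cyp4a12a, a male-specific omega-hydroxylase, was at 7.91.

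**Figure D4:**
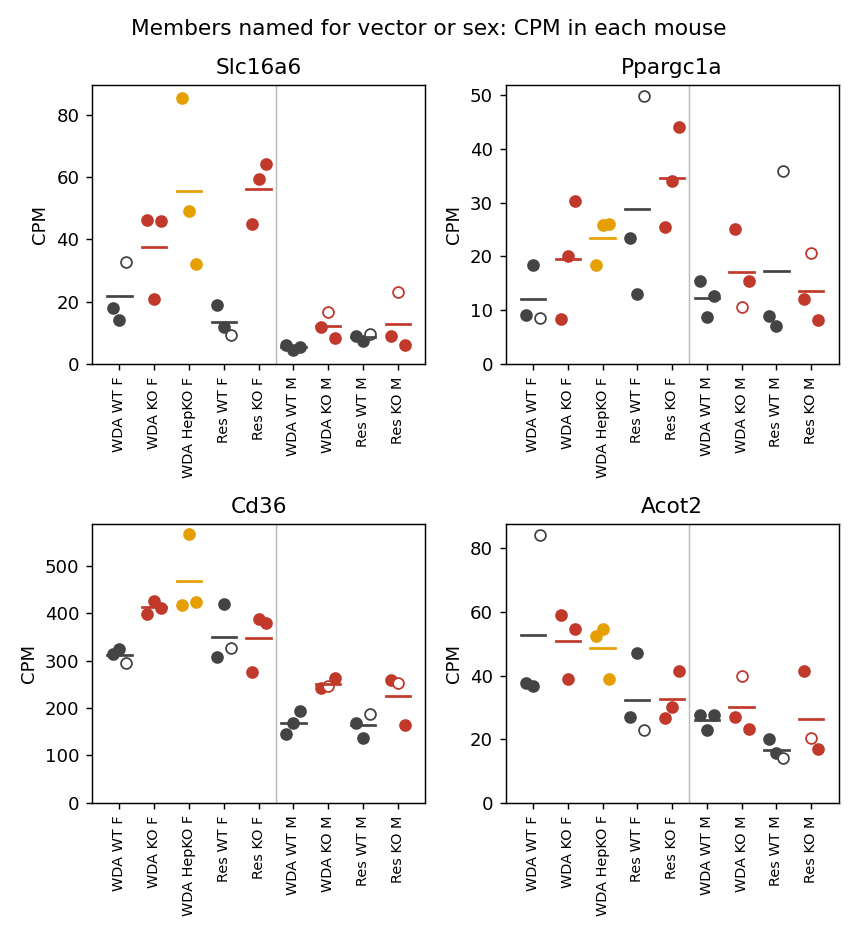
CPM in each mouse (points) and group mean (lines) for 4 members named for the vector or the sex, with colours and open points by vector and cholangiocyte markers (WT grey, KO red, HepKO orange), females left of the grey line. Res KO females lie at 44.9 to 64.3 CPM for Slc16a6 and Res WT females at 9.21 to 18.8 CPM.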

How the data were processed

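Total RNA from whole liver was sequenced on the BGISEQ platform. Per the labels and the study, the authors aligned reads with HISAT to GRCm38.p6 and with Bowtie2 to genes, with versions not given in the sources used here. The deposited tables hold, per the file headers, an estimated count of reads per gene as the authors made it, of which 7.34 to 8.09% were not whole, and FPKM, which the authors scaled by gene length and depth. The members and lists were chosen with earlier results of these data known. Counts were rounded and joined over the 4 tables. Genes were kept by filterByExpr (minimum count 10), scaled by TMM and tested with edgeR 4.0.16 in R 4.3.3 with Benjamini-Hochberg adjustment at 0.05. DESeq2 1.42.0, other scalings, no filter, 1 fit over 9 groups and leaving out each library were alternatives. The test was checked on simulated counts. In comparisons of both sexes, sex was a term. FPKM were used for levels between genes and, for Cpt1a, Ppara and Kdm5b, beside the CPM of single mice, with no test. Named members were those called, at most 8 per comparison, or, where none was called, the 3 of largest log2 fold change with a mean of 1 CPM or more. Samples were grouped by the labels, mouse numbers did not pair mice, and p-values measure the spread between mice. Depth was 14634602 to 19388251 counts per library. Other genes of the pathway were 115 of 116 asked. Cell type markers came from written lists.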

Additional observations from a re-analysis of the deposited data

How the results depend on the processing

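The 26 named values kept their direction under every alternative, except Pdk4 in HepKO against KO, which ranged from -0.893 to 0.289 over the left-out libraries (0.289 without KO mouse 1). Of the alternatives for these values, 359 left the call as it was, 63 lost it and 6 gained it. The 359 include values not called in the main fit, which had no call to lose. All 63 losses fell on the called values. Shares in parentheses are of all genes tested. Under DESeq2 the number of members called was 8 for resolution in WT (16.5%), 2 in WT females (3.07%), 1 in KO males (0.62%), 1 for KO on WDA (0.0316%), 2 in WDA males (0.137%), 1 for KO at resolution (0.0466%), 2 in Res females (4.83%) and 1 for HepKO against WT (1.79%). With all 9 groups in 1 fit it was 3 for resolution in WT females (6.21%), 1 in WT males (2.28%), 2 in KO females (11.5%), 2 in KO males (0.754%), and 1 for KO in Res females (4.95%). Without library scaling it was 10 for males against females (6.49%), where the median of all genes moved to -0.275, and without the 5 libraries high in cholangiocyte markers (an alternative chosen after seeing the data) it was 11 for resolution in WT (18.5%), 8 for males against females (5.5%) and 2 for HepKO against WT (2.8%). Without library scaling the split in KO females was 1 higher and 8 lower (21.1%), beside 3 and 6 (20.4%). With 1 library left out, 717 to 3020 genes were called for resolution in WT and 446 to 2451 in KO. Leaving out 1 library gave 1 (without WDA WT female mouse 5) to 10 (without mouse 7, 23.5%) members for resolution in WT, 3 to 7 in KO, 2 to 9 in WT males, 2 to 8 in KO females, 2 to 4 for males against females, 0 to 2 for HepKO against WT and 0 to 1 for KO in Res females. Where no share of all genes stands beside such a count, it cannot be read as particular to the members. No paired analysis was possible because mouse numbers in the labels name single animals. Each group held 3 mice.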
